A study of Mus musculus with 6 samples.

Results

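Potassium channel genes were followed through 3 circulating tumor cells (CTCs, tumor cells taken from blood) and 3 tumor cells. The genes are the rows of the deposited expression table whose symbol starts with Kcn, without those ending in -ps, os or -as. Of 99 such rows, 2 were left out by the ending, Kcnab3os and Kcnd3os, which left 97 members among the 45038 rows of the table. GENCODE release M21 annotates 94 members as protein-coding. The other 3, Kcnmb4os1, Kcnmb4os2 and Kcnq1ot1, are non-coding RNAs transcribed opposite a channel gene, and their symbols do not end in the excluded letters.

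The cells came from 3 mice, called 1157, 1168 and PDGF1 in the labels, and each mouse gave 1 CTC and 1 tumor cell, named here by the mouse (the 1168 CTC, the 1168 tumor cell). The titles of the tumor cells end in GBM, and the labels call each CTC a single cell. Genotype, strain, age and treatment of the mice are not given in the sources used here. Poly(A) RNA was amplified linearly in rounds of copying and in vitro transcription before stranded libraries were made, per the labels' protocols.

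Potassium channels let potassium ions leave or enter a cell along their gradient and so set its resting voltage. In brain tissue they end action potentials in neurons, buffer potassium in glia and shape the voltage of dividing precursor cells. The pore is built by alpha subunits, which open with voltage (Kcna, Kcnb, Kcnc, Kcnd, Kcnq and Kcnh), with intracellular calcium or sodium (Kcnma, Kcnn, Kcnt, Kcnu), pass current mainly inward (Kcnj) or leak (Kcnk, with tandem pores). The subunits of Kcnf, Kcng, Kcns and Kcnv form no channel alone and modify others. Accessory subunits of Kcnab, Kcne, Kcnip and Kcnmb have no pore and change the gating or traffic of their partners.

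Levels are FPKM, fragment counts divided by transcript length and library total. Coverage along transcripts of the amplified RNA was not tested, so rankings and shares between genes are approximate. The 2 cells of mouse 1168 stood apart from the other 4, with 9702 genes in the CTC and 11239 in its tumor cell at 1 FPKM or more, against 1486 to 4078. Background was read from olfactory and vomeronasal receptors, genes of sensory neurons in the nose. The 99th percentile of these 1789 genes lay at 0.167 FPKM in the 1168 CTC and 1.52 in its tumor cell. The pair from mouse 1157 had percentiles of 0.885 and 1.58, and the PDGF1 pair 4.03 and 7.02. Total read counts were not analysed here, but low receptor values sit at fixed ratios between cells, which gives relative depth. The 1157 tumor cell was the shallowest, the 1168 tumor cell was 4.98 times deeper, and the other 4 were 2.39 to 3.81 times deeper. A single fragment is thus worth 4.98 times more FPKM in the 1157 tumor cell than in that of mouse 1168. Fragments of amplified RNA are not independent molecules.

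Most members stayed below 1 FPKM in every cell, as did most rows of the table. Of the 97, 38 reached 1 FPKM in at least 1 cell and 59 stayed below it in all 6. Of all 44804 rows used, 16193 reached it in at least 1 cell. Among the 38, 22 reached 1 FPKM in exactly 1 cell, 15 in exactly 2, and only Kcnmb4 in 4. No member was listed at 0 in all 6 cells, and 35 lay above the receptor percentile of at least 1 cell.

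The 1168 CTC had 15 members at 1 FPKM or more and its tumor cell 16, and 9 of these were shared. That is 15.5% and 16.5% of the members, where named protein-coding genes reached 43.1% and 49.9%. The 1157 CTC and tumor cell had 7 and 9 members at that level, beside 10.3% and 16.0% of protein-coding genes. Those of mouse PDGF1 had 2 and 7, beside 4.85% and 10.3%. Over all 44804 rows used the shares were 21.7% and 25.1% for mouse 1168, 6.41% and 9.10% for 1157, and 3.32% and 6.75% for PDGF1. Against these, the members of mouse 1157 stood at 7.22% and 9.28%, and those of PDGF1 at 2.06% and 7.22%. The member share was thus higher in both 1157 cells and the PDGF1 tumor cell, and lower in the other cells. Mouse 1157 shared 1 member between its cells, and mouse PDGF1 shared 0. Above the receptor percentile stood 24 members in the 1168 CTC and 12 in its tumor cell. That percentile lay at 0.167 and 1.52 FPKM in these cells, so the cutoffs differed. The counts are 24.7% and 12.4% of the members, beside 52.7% and 44.9% of protein-coding genes. Mouse 1157 had 8 and 6 such members (8.25% and 6.19%, beside 11.7% and 9.999%). PDGF1 had 0 and 3 (the latter 3.09%), beside 1.54% and 1.45%. By this cutoff the member share exceeded that of protein-coding genes in the PDGF1 tumor cell alone.

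**Figure D1:**
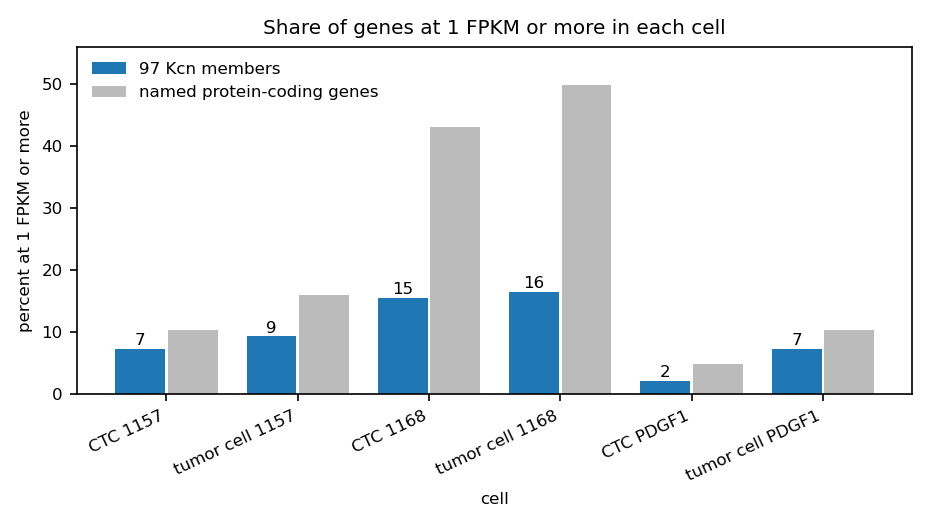
Percent of the 97 Kcn members (blue, with the number of members above the bar) and of 18772 named protein-coding genes (grey) at 1 FPKM or more, on the vertical axis, in each of the 6 cells. The members run from 2 of 97 in the PDGF1 CTC to 16 of 97 in the 1168 tumor cell, and their share is below that of protein-coding genes in all 6 cells.

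**Figure D2:**
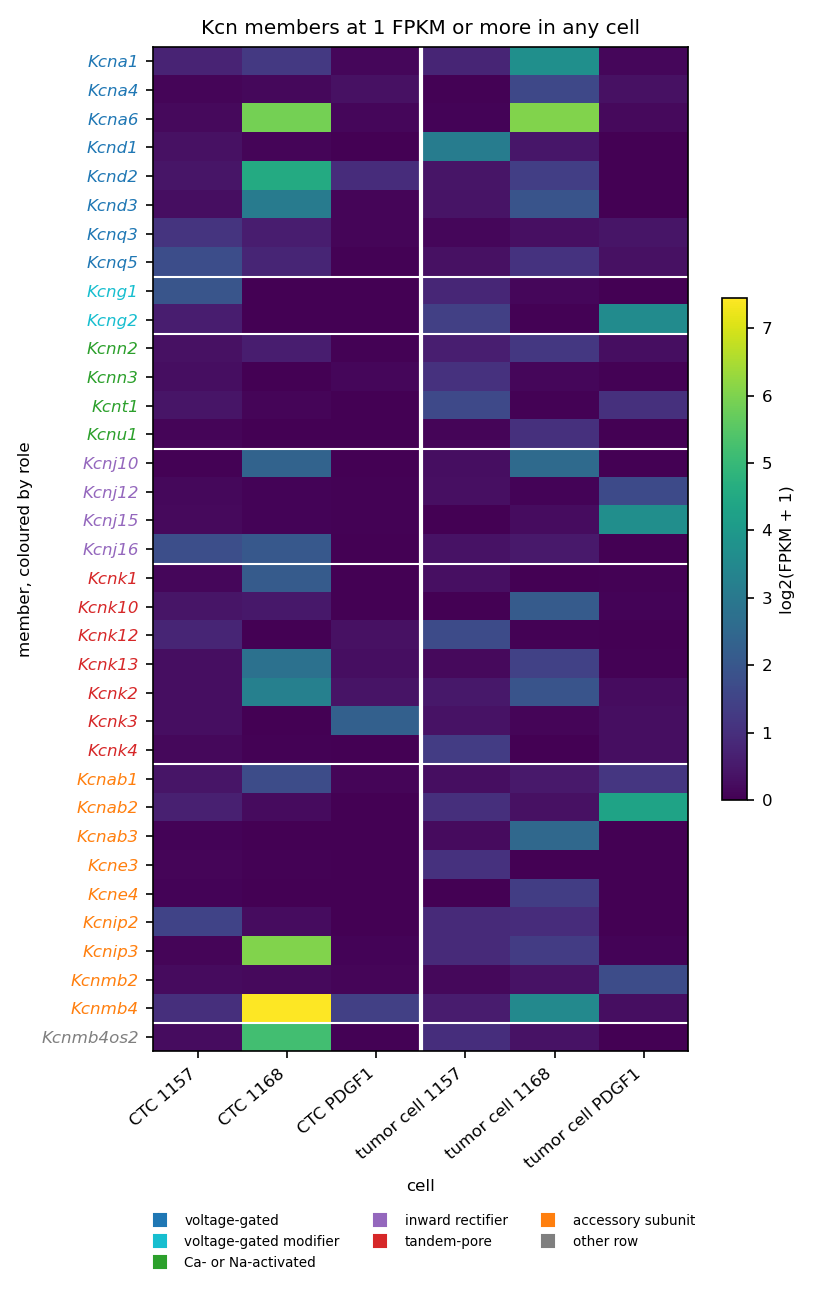
Level of 35 of the 38 members that reached 1 FPKM in any cell, as log2(FPKM + 1) by colour, with the 3 CTCs left and the 3 tumor cells right of the line and gene names coloured by role. Kcna6 is high in both cells of mouse 1168, and Kcnmb4, Kcnip3, Kcnmb4os2 and Kcnd2 are highest in the CTC of that mouse.

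The sequences before the start sites of 4 of the most abundant members of mouse 1168 are shown because Kcnip3 and Kcnd2 were high together in its CTC, Kcna6 was high in both cells, and Kcnmb4os2 starts inside the Kcnmb4 gene. They are the 150 bases before the first RefSeq start (build GRCm38.p6), at chr2:127522095-127522244 (minus strand), chr6:21215196-21215345 (plus), chr6:126740675-126740824 (minus) and chr10:116473013-116473162 (plus), read along the strand of the gene. The window of Kcnmb4 is annotated as untranslated region and is not shown. Capitals mark matches on either strand to a CCAAT box (CCAAT) or an E-box (CAGCTG).

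Kcnip3: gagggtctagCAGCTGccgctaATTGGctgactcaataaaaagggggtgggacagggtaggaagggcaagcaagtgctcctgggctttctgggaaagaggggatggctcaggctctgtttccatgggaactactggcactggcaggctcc
Kcnd2: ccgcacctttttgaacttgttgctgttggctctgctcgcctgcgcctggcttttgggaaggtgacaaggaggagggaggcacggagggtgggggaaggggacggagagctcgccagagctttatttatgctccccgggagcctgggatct
Kcna6: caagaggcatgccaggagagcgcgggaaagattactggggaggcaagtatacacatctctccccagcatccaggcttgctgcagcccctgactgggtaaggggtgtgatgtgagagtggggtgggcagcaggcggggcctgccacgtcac
Kcnmb4os2: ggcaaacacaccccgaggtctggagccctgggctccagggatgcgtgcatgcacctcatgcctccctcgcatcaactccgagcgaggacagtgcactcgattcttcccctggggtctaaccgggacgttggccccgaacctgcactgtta

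Kcnip3 held both motifs, and the other 3 sequences held neither. Of 32851 RefSeq promoters at this length, 24.5% hold CCAAT and 8.39% hold CAGCTG. A GC box (GGGCGG, in 28.6%) and a TATA box (TATAAA, in 7.57%) were searched on both strands too and were in none of the 4. The 4 windows differ in composition, with 62.0% GC in Kcna6, 62.7% in Kcnmb4os2, 60.7% in Kcnd2 and 57.3% in Kcnip3, against a median of 54.0% over all promoters. CpG pairs numbered 4, 9, 7 and 1, against a median of 4. RefSeq gave a start for 71 of the 97 members. On GRCm38 the Kcna6 window lies in an exon of the antisense gene Gm26673, and the Kcnmb4os2 window in an intron of Kcnmb4.

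Across the 3 mice, Kcnmb4 was the one member with enough signal for the test of CTCs against tumor cells. It encodes the brain-enriched beta subunit of the large-conductance calcium-activated (BK) channel. In mouse order 1157, 1168 and PDGF1, its CTC levels were 1.01, 173 and 1.68 FPKM, and its levels were 0.469, 10.3 and 0.221 in their tumor cells. The CTC was higher than its own tumor cell in 3 of 3 mice, by 0.45, 3.95 and 1.13 on the log2(FPKM + 1) scale. Kcnmb4 met the filter of 1 FPKM in 3 cells through the CTCs, since among tumor cells only that of mouse 1168 reached 1 FPKM. The count of 3 of 3 mice is therefore no independent support for a difference. The groups overlapped, since the 1168 tumor cell lay above the CTCs of the other mice. The values of mouse PDGF1 lay under the receptor percentile of their cells, and so did that of the 1157 tumor cell, at 0.469 beside 1.58.

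The test was limma on log2(FPKM + 1) over 4165 genes, those that reached 1 FPKM in 3 or more of the 6 cells. It called 0% of genes at an adjusted p under 0.05, and 0 of the 1 member fitted, with 0 members and 7 genes at an unadjusted p under 0.05. A limma fit blocked on mouse called 0.0240% of genes, and again 0 members. Kcnmb4 averaged 3.29 ± 3.60 (SD, n = 3) over the CTCs, against 1.45 ± 1.78 (SD, n = 3) over the tumor cells. The difference of 1.84 (SE 2.31, limma, adjusted p = 0.9999) was within the spread between mice, and without the 1168 CTC it turned to -0.24. The deposited FPKM sum to different totals, from 46973 in the PDGF1 CTC to 727351 in the 1168 CTC. Scaling each cell to the same sum over all rows turned mouse 1157 to -0.27, and scaling over protein-coding genes turned it to -1.51, while mice 1168 and PDGF1 stayed positive.

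The pore partner of Kcnmb4 was low throughout. Kcnma1, the alpha subunit of the BK channel, had CTC levels of 0.289, 0.0881 and 0.195 FPKM in the same order of mice, and tumor cell levels of 0.411, 0.0577 and 0.0798. All 6 values lay under the receptor percentile of their cell. Of the other beta subunits, Kcnmb2 reached 2.29 FPKM in the PDGF1 tumor cell, under the receptor percentile there, and at most 0.287 elsewhere. Kcnmb3 was at most 0.152, and Kcnmb1 at most 0.0546. The gamma subunits of the channel (Lrrc26, Lrrc38, Lrrc52 and Lrrc55) were at most 0.354 FPKM.

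Kcnmb4os2, the antisense RNA at the head of Kcnmb4, had CTC levels of 0.186, 35.3 and 0.0271 FPKM and tumor cell levels of 0.969, 0.297 and 8.41e-32 in that order, the last an estimate of practically no reads. It was high in the 1168 CTC alone. On GRCm38 it runs on the plus strand of chromosome 10 from 116473163 to 116475319, and Kcnmb4 on the minus strand from 116417861 to 116473878, so their annotated ends overlap. The library kit keeps strand, but which strand setting the counting used is not stated in the labels. Reads of the 2 genes may therefore not be separated in these values. The second antisense row, Kcnmb4os1, reached at most 3.46e-08 FPKM.

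**Figure D3:**
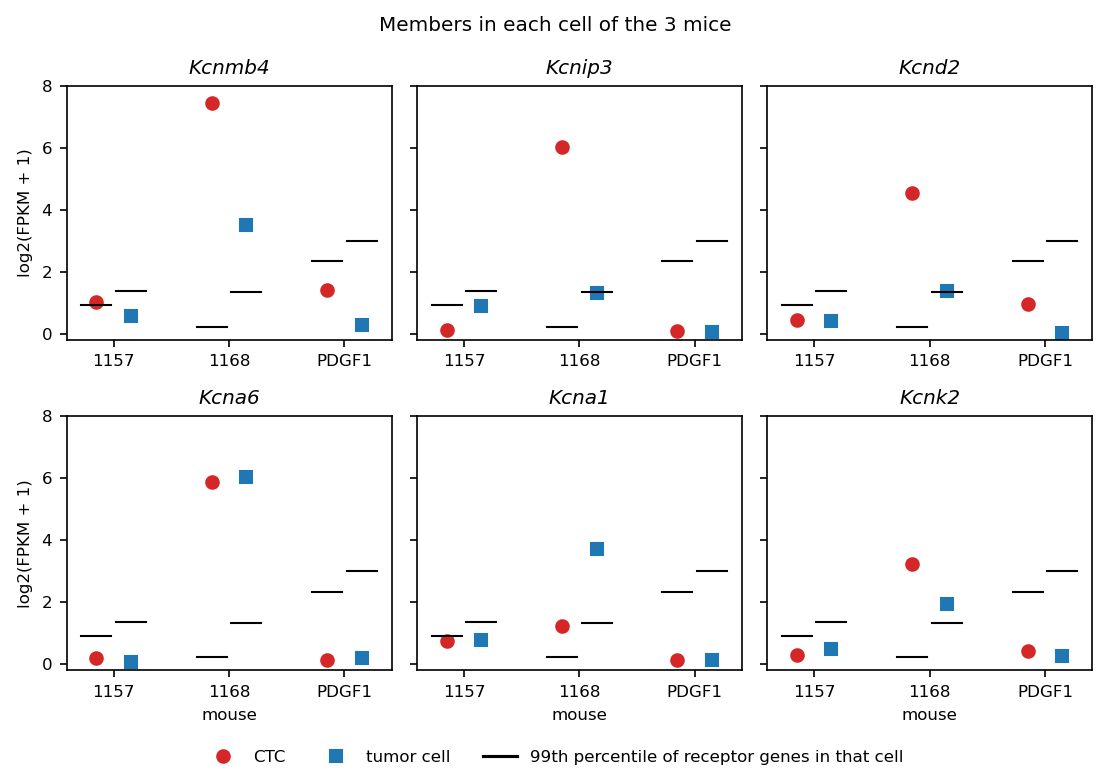
Level of 6 members in the CTC (red circle) and the tumor cell (blue square) of each mouse, as log2(FPKM + 1), with the background of each cell (the 99th percentile of its receptor genes) as a black line. All 6 members stand above that line in the 1168 CTC, while in the other mice only Kcnmb4 in the 1157 CTC does, at 1.01 FPKM beside 0.885.

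Within mouse 1168 more members were higher in the CTC than lower. Kcnip3 and Kcnmb4, which encode accessory subunits, and Kcnd2, a voltage-gated pore, had the largest differences among protein-coding members, and Kcna1 was the most abundant member that was lower. Of 22 members measured, meaning that either cell reached 1 FPKM, 12 were higher in the CTC and 6 lower, with calls made at a log2 difference of 1. Those are 54.5% and 27.3% of the members, where 22.7% and 24.9% of all 12396 measured genes were called higher and lower. The median difference was 1.20 over the members and 0.04 over all measured genes. Among the 12 were Kcnmb4os2, Kcnip3, Kcnmb4, Kcnd2, Kcnk1, Kcnj16, Kcnk13, Kcnk2, Kcnab1 and Kcnd3, and the 6 were Kcnab3, Kcna1, Kcnk10, Kcna4, Kcne4 and Kcnu1. By role, 4 of 8 voltage-gated pores were higher and 2 lower, 3 of 4 tandem-pore channels higher and 1 lower, and 3 of 5 accessory subunits higher and 2 lower. Of 19 members that also lay above the receptor percentile, 12 were higher and 5 lower, beside 24.2% and 23.3% of all genes so filtered. With only 1 library of each kind there is no replicate, and the counts describe these 2 libraries. With cells scaled to the same sum, 6 of 15 members were higher and 3 lower, beside 17.5% and 22.2% of all genes, and no measured member of mouse 1168 changed direction.

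**Figure D4:**
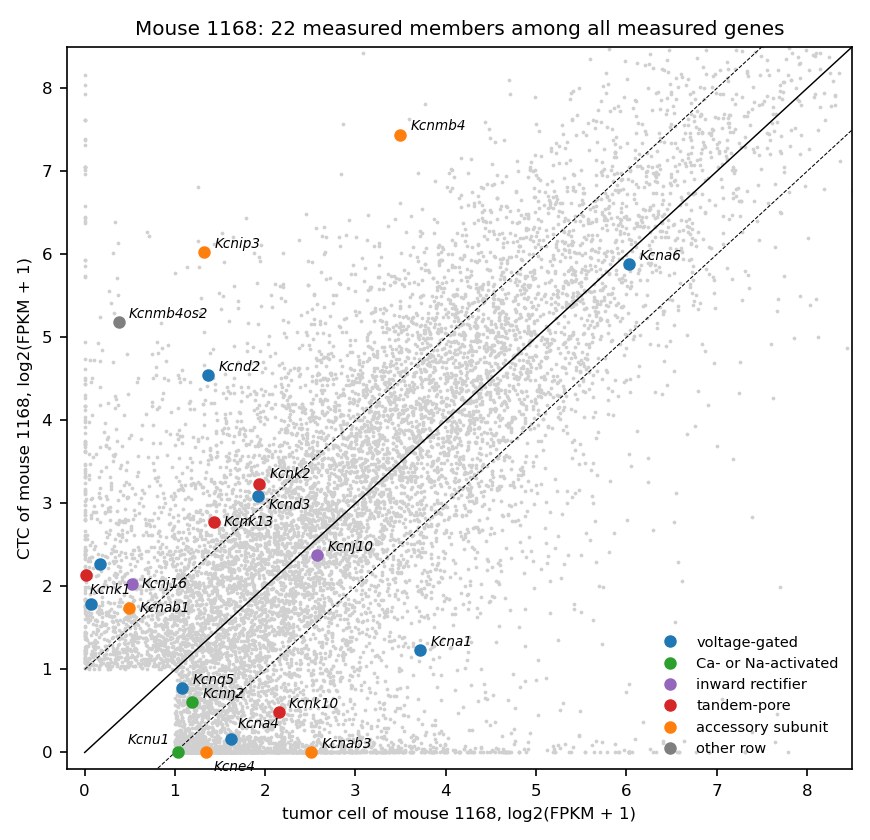
The 22 measured members (coloured by role) and all measured genes (grey) of mouse 1168, with log2(FPKM + 1) in the tumor cell on the horizontal axis and in the CTC on the vertical axis. The solid line marks equal values, the dashed lines a difference of 1, the most abundant genes lie outside the plotted range, and some members carry no name. Kcnmb4, Kcnip3, Kcnmb4os2 and Kcnd2 lie far above the upper dashed line, Kcna6 and Kcnj10 lie between the lines, and Kcna1 lies below.

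Shal-type channels, which carry fast A-type currents below the spike threshold, and their calcium-sensing partner were high together in the 1168 CTC. Kcnd2 was at 22.5 FPKM in that CTC and 1.58 in the tumor cell, a log2 difference of 3.18. In mouse 1157 it was at 0.345 and 0.327, and in mouse PDGF1 at 0.921 and 0.00977. Kcnd3 was at 7.49 against 2.80 in mouse 1168, a difference of 1.16 that became 0.79 with cells scaled to the same sum. Kcnip3, which binds Shal channels and is also known as a calcium-dependent transcriptional repressor, was at 64.4 FPKM against 1.50, a difference of 4.71, and the lower value lay just under the receptor percentile of 1.52. Elsewhere Kcnip3 was at most 0.860 FPKM.

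The third Shal gene had its signal in another cell. Kcnd1 was at 7.69 FPKM in the 1157 tumor cell and at most 0.359 in the other 5. Dpp6, a further partner of Shal channels, was between 0.392 and 0.979 FPKM in 5 cells and above 1 in the PDGF1 tumor cell, and Dpp10 was at most 0.938.

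Shaker-type channels, which open at modest depolarisation and sit on axons and in glia, were led by Kcna6. Its FPKM was 58.2 in the 1168 CTC and 64.4 in its tumor cell, a difference of -0.14, and at most 0.133 in the other 4 cells. Kcna6 made up 50.9% of the summed FPKM of all members in that tumor cell. Kcna1 was at 1.35 in the 1168 CTC and 12.2 in its tumor cell, a difference of -2.49, and between 0.0910 and 0.698 in the other cells. Kcna4 went the same way, at 0.123 and 2.07, a difference of -1.45 that became -0.92 with cells scaled to the same sum. Kcna3, known from lymphocytes and microglia, was listed at 0 in both cells of mouse 1168 and was at most 0.537 elsewhere.

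Kcna5, Kcna1 and Kcna6 lie in that order on the minus strand of chromosome 6 (GRCm38), with 105 kb between the first and second and 61.9 kb between Kcna1 and Kcna6. The neighbours did not share a level in mouse 1168, where Kcna5 was at 0 in the CTC and 0.0538 in its tumor cell. Kcna6 runs from 126708329 to 126740674, and the antisense gene Gm26673 that overlaps it was at most 0.296 FPKM.

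Of the other voltage-gated genes, Kcnq5 and Kcnq3, subunits of the M-current that restrains repeated firing, were higher in the 1157 CTC, at 2.41 against 0.254 and 1.19 against 0.0920, though both differences fell under 1 with cells scaled over protein-coding genes. No Kcnh gene reached 1 FPKM, and Kcnh2, the cardiac delayed rectifier gene, was at most 0.433. In all, 11 of 30 voltage-gated members reached 1 FPKM in some cell.

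Among the modifiers, 2 of 10 reached 1 FPKM, both in cells of mice 1157 and PDGF1 alone. Kcng1 was at 2.92 in the 1157 CTC and 0.732 in its tumor cell, a difference of 1.18 that turned to -0.95 with cells scaled over protein-coding genes. Kcng2 was at 11.0 FPKM in the PDGF1 tumor cell, above the receptor percentile there, and at 1.66 in the 1157 tumor cell.

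Channels opened by calcium or sodium stayed low, with 4 of 8 members at 1 FPKM or more in some cell. Kcnt1, a sodium-activated channel, was at 2.15 FPKM in the 1157 tumor cell and 1.06 in that of mouse PDGF1, and at most 0.330 in the other cells. The value of mouse PDGF1 lay under the receptor percentile. Kcnn2 and Kcnn3, small-conductance channels, peaked at 1.29 in the 1168 tumor cell and 1.09 in that of mouse 1157, both under the percentile of their cell. Kcnu1, the sperm channel opened by voltage and pH, was at 1.05 FPKM in the tumor cell of 1168, under the receptor percentile there, and listed at 0 in its CTC. Kcnn4, the intermediate-conductance channel of blood cells and many tumors, was at most 0.179 in any cell.

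Inward rectifiers clear potassium into glia. Kcnj10, the main glial one, was at 4.20 FPKM in the 1168 CTC and 4.95 in its tumor cell, a difference of -0.19, and at most 0.213 in the other cells. Kcnj16, which joins Kcnj10 in mixed channels, was at 3.10 in that CTC against 0.434. Mouse 1157 gave 2.45 in the CTC and 0.296 in its tumor cell. Both differences passed 1, at 1.52 and 1.41. With cells scaled to the same sum they were 0.90 and 0.96, and scaled over protein-coding genes that of mouse 1157 was -0.03. In mouse PDGF1 Kcnj16 was at 0.00676 and 0.00696. The neighbouring gene of Kcnj10, Kcnj9, was listed at 0 in both cells of mouse 1168, and Kcnj2, 38.2 kb from Kcnj16, was at most 0.227 in any cell. Kcnj15 was at 11.7 FPKM in the PDGF1 tumor cell, above the receptor percentile, and at most 0.191 elsewhere. Kcnj12, a strong rectifier of heart and muscle, was at 2.19 FPKM in that cell, under the percentile, and at most 0.247 elsewhere. Of 15 inward rectifiers, 4 reached 1 FPKM in some cell, and Kcnj11, the pore of ATP-sensitive channels, was at most 0.361.

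Tandem-pore channels, which carry the background leak, gave 3 of the higher members of mouse 1168. Kcnk2, a channel opened by stretch and lipids, was at 8.41 FPKM in the CTC against 2.81. Kcnk13, known from microglia, was at 5.87 against 1.69, and Kcnk1, a weak leak channel common in astrocytes, was at 3.40 against 0.00842. With cells scaled to the same sum, the differences of Kcnk2 and Kcnk13 fell from 1.30 to 0.91 and from 1.35 to 0.90, and Kcnk1 went from 2.13 to 1.24. Kcnk10 was lower in that CTC, at 0.405 against 3.44. In mouse 1157, Kcnk12 and Kcnk4 were at 2.24 and 1.49 FPKM in the tumor cell and at 0.694 and 0.121 in the CTC. The Kcnk4 value of 1.49 lay under the receptor percentile of that tumor cell. Kcnk3, an acid-sensitive leak channel, was at 3.88 FPKM in the PDGF1 CTC, just under the receptor percentile of 4.03, and at most 0.293 in the other cells. Kcnk6, known from macrophages, was at most 0.947.

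Accessory subunits of Shaker channels differed from cell to cell. Kcnab2 was at 18.8 FPKM in the PDGF1 tumor cell, the highest member there, listed at 0 in its CTC and at most 0.988 elsewhere. Kcnab3 was at 4.69 FPKM in the 1168 tumor cell and listed at 0 in its CTC. Kcnab1 went the other way in mouse 1168, at 2.34 in the CTC against 0.411, a difference of 1.24 that became 0.70 with cells scaled to the same sum. Kcnip2, another binding partner of Shal channels, was at 1.85 in the 1157 CTC and 0.857 in its tumor cell, and below 1 elsewhere. The small single-pass subunits Kcne3 and Kcne4 passed 1 FPKM in 1 cell each. Kcne3 was at 1.08 in the tumor cell of 1157, under the receptor percentile there, and Kcne4 at 1.53 in that of 1168. Of 16 accessory members, 9 reached 1 FPKM in some cell. They made up 60.0% of the summed member FPKM in the 1168 CTC and 16.2% in its tumor cell, where voltage-gated pores made up 68.2%. Kcnmb4 alone was 43.1% of the sum in that CTC.

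**Figure D5:**
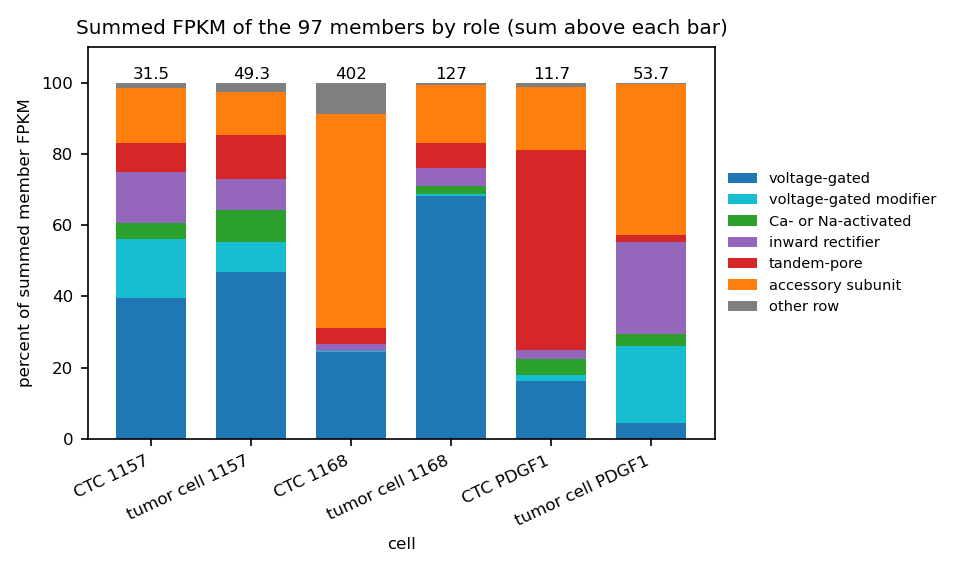
Share of the summed FPKM of the 97 members that each role takes in each cell, in percent, with the sum in FPKM above the bar. The sum is 402 in the 1168 CTC and 127 in its tumor cell and between 11.7 and 53.7 in the other cells, and accessory subunits take the most in the 1168 CTC.

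The 59 members below 1 FPKM in all cells came from every role. Of these, 19 were voltage-gated, 8 modifiers, 4 calcium- or sodium-activated, 11 inward rectifiers, 7 tandem-pore channels, 7 accessory subunits and 3 other rows. The highest of them were Kcnc2 at 0.987, Kcnk6 at 0.947, Kcnj9 at 0.944, Kcng3 at 0.868, Kcnip1 at 0.596, Kcnma1 at 0.411 and Kcnq1ot1, an imprinted antisense RNA within Kcnq1, at 0.361.

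In mouse 1157, 4 of 15 measured members were higher in the CTC and 5 lower, beside 29.0% and 37.1% of all 5961 measured genes. In mouse PDGF1, 2 of 9 were higher and 7 lower, beside 23.7% and 59.9% of 4042 genes. The 4 of mouse 1157 were Kcnq5, Kcnj16, Kcng1 and Kcnq3, and the 5 included Kcnd1, Kcnt1 and Kcnk4. In mouse PDGF1 the higher members were Kcnk3 and Kcnmb4, and the lower ones Kcnab2, Kcnj15, Kcng2, Kcnj12, Kcnmb2, Kcnab1 and Kcnt1. The 3 members of mouse PDGF1 that lay above the receptor percentile, Kcnab2, Kcnj15 and Kcng2, were all lower in its CTC. The counts depended on scale. With cells scaled to the same sum over all rows, 1 of 48 measured members was higher and 22 lower in mouse 1157, beside 12.1% and 63.2% of all genes. In mouse PDGF1 the same scaling gave 7 of 27 higher and 12 lower, beside 22.6% and 56.4%. Scaled over protein-coding genes, 0 of 79 were higher and 69 lower in mouse 1157, beside 7.57% and 81.8% of all genes. For PDGF1 this gave 18 of 47 higher and 13 lower, beside 34.1% and 41.8%.

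Over the 3 mice, 31 of the 38 members passed 1 in some mouse, beside 68.0% of the 16193 genes at 1 FPKM or more in any cell, and 26 of them in exactly 1, beside 55.6%. In all 3 mice 0 were higher and 0 lower by at least 1, beside 0.0865% and 0.185% of the same genes. Kcnmb4 (mice 1168 and PDGF1) and Kcnj16 (mice 1157 and 1168) were higher in 2 mice, beside 2.48% of genes. Kcnt1 was lower in 2 (mice 1157 and PDGF1), beside 4.47%, though its 1.06 FPKM in the PDGF1 tumor cell lay under the receptor percentile of 7.02. Another 2 members, Kcnab1 among them, were higher in 1 mouse and lower in another, beside 6.41%. By any amount, Kcnd2, Kcnk13 and Kcnmb4 were higher in the CTC of all 3 mice (3 of 38, beside 5.32%), though each of the 3 turned in mouse 1157 with cells scaled to the same sum over all rows. Kcnab2, Kcnab3, Kcnd1, Kcng2 and Kcnn2 were lower in all 3 (5 of 38, beside 15.9%), though Kcnab3 turned in mouse PDGF1 with cells scaled to the same sum.

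Other genes that move potassium were read beside the members. Of 13 genes of the sodium-potassium pump and related pumps, 1 entered the test and 0 were called (limma). In mouse 1168, 1 of 8 measured was higher in the CTC by at least 1 and 3 lower, beside 22.7% and 24.9% of all measured genes. The pump subunits Atp1b1 and Atp1b3 were at 44.9 and 97.1 FPKM in the CTC and 33.4 and 190 in the tumor cell. Fxyd6, a pump regulator of the nervous system, was at 125 against 6.16, and Fxyd5 was at 0.150 against 43.4.

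Of 11 cotransporters and their kinases, 5 entered the test and 0 were called. In mouse 1168, 3 of 8 measured were higher in the CTC and 2 lower, beside 22.7% and 24.9% of all measured genes. Wnk1, a chloride-sensing kinase, was at 294 FPKM in the CTC against 87.3, and Slc12a4, a potassium-chloride cotransporter, at 23.4 against 8.78. Of 21 channel partners outside the Kcn name, 6 entered the test and 0 were called. In mouse 1168, 2 of 9 measured were higher and 2 lower, near the same shares of all genes. The calmodulin gene Calm2, whose product gates calcium-activated and Kcnq channels, was at 664 against 350 there, with 276 and 0.697 for mouse 1157. The HCN channels, pacemakers that pass potassium and sodium, were at most 1.28 FPKM in any cell.

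Markers of other cell types differed between the cells of mouse 1168 beside the members. Of 12 oligodendrocyte progenitor markers, 11 reached 1 FPKM in the CTC and 9 did so in its tumor cell, with summed FPKM of 475 and 226. Measured one by one, 8 of the 12 were higher in the CTC and 2 lower. Over all measured genes of that mouse 22.7% and 24.9% were called so, the shares to set beside each marker count. Of 14 microglia and macrophage markers, 6 reached that level in the CTC and 13 in its tumor cell, with sums of 250 and 2509, and 12 of 13 measured were lower. Aif1 and C1qa, which define microglia and macrophages, were listed at 0 in the CTC. Over the 3 mice the microglia and macrophage sum ran from 2.26 to 250 in CTCs and from 11.5 to 2509 in tumor cells, and the progenitor sum from 1.17 to 475 and from 5.45 to 226.

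In the 1168 CTC the astrocyte and neuron sums each rested on 1 gene, and other genes led in its tumor cell. Of 9 astrocyte markers, 4 reached 1 FPKM in the 1168 CTC and 6 in its tumor cell, with sums of 782 and 419. Aldoc, a glycolytic enzyme of astrocytes, alone gave 613 and 30.9, and without it the sums were 169 and 388. Most of these remaining sums came from S100b, at 108 and 364. Of 6 measured, 2 were higher and 2 lower, with a median difference of -0.14. The higher were Aldoc and Slc1a3, the latter at 49.3 against 8.94. The lower were S100b and Gja1, the latter at 0.585 against 3.99. Gfap was listed at 0 in the CTC and was at 0.609 in the tumor cell, under the receptor percentile there. Of 12 neuron markers, 2 reached 1 FPKM in the CTC and 5 in its tumor cell, with sums of 69.8 and 45.3. Map2, a microtubule protein of dendrites, gave 64.4 and 12.5 of these, and without it the sums were 5.37 and 32.8. Of 5 measured, 2 were higher (Map2, and Gad1 at 4.93 against 1.73) and 3 lower (Stmn2, Nefl and Nefm), with a median of -2.12. Gad2 and Nefl were listed at 0 in the CTC. In the tumor cell Nefl was at 3.61, and Gad2 was at 0.163, under the receptor percentile of 1.52. The astrocyte sums ran from 4.15 to 782 over all CTCs and from 5.51 to 419 over all tumor cells, and the neuron sums from 4.51 to 69.8 and from 6.31 to 45.3.

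Of the blood cell markers, Itga2b was the highest in the 1168 CTC. Leukocyte markers reached 1 FPKM for 0 of 12 genes in the CTC and 4 in its tumor cell, with sums of 1.32 and 259. Among 5 listed at 0 in the CTC, S100a8 was at 5.30 in the tumor cell and Cd79a at 0 there too. Platelet and erythroid markers summed to 72.4 and 13.4, of which Itga2b, an integrin of platelets, gave 68.0 and 6.09. Without Itga2b the sums were 4.43 and 7.32, of which the platelet gene Gp1bb gave 4.11 and 6.62. The platelet genes Ppbp and Gp9 were listed at 0 in the CTC and were at 0.0799 and 0.0287 in its tumor cell. The globins Hba-a1 and Hba-a2 were listed at 0 in both cells. Mature oligodendrocyte markers summed to 19.3 and 87.1, with 3 of 4 measured lower in the CTC and Mog listed at 0 in both cells. Endothelial and pericyte markers summed to 3.60 and 11.97, with 1 of 4 measured higher and 3 lower, and Cldn5 listed at 0 in both. Over all mice the leukocyte sum ran from 1.32 to 13.9 in CTCs and from 0.864 to 259 in tumor cells, and the platelet and erythroid sum from 0.383 to 72.4 and from 0.153 to 13.4. The mature oligodendrocyte sum ran from 0.655 to 19.3 and from 5.48 to 87.1, and the endothelial and pericyte sum from 0.897 to 3.60 and from 1.11 to 11.97. The part of these cell types in the differences of the members was not tested.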

How the data were processed

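The authors deposited 1 table of FPKM for 6 cells. STAR 2.4.2a, Cufflinks 2.2.1 and the build GRCm38 are named per the submitters' processing notes, and the treatment of reads that match several genes and the strand setting are not given in the sources used here. Rows with a name turned into a date (27) or listed more than once (211) were left out, which left 44804. Differences across mice were fitted on log2(FPKM + 1) by limma (3.58.1, R 4.3.3; trend of variance with level, two-sided) with Benjamini-Hochberg adjustment over 4165 genes. The fit was also run on simulated data, and how often it finds a true difference at the spread of these cells is not reported here. A member was called within a mouse where the log2 difference reached 1. Python 3.11.15 with pandas 2.3.3 did the rest, and GENCODE M21 and RefSeq gave annotation and sequences.

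The members and lists were chosen with earlier results of these data known. Genes were named if fitted, among the 8 highest of a cell or the 12 largest differences per direction in mouse 1168, moved alike in all mice, known from glia or blood, or high in a pathway list. A few genes chosen this way were omitted from the text. Other members named, and relative depth, were chosen after their values were seen. Relative depth is the most frequent ratio over receptor genes, which held within 0.1 on the log2 scale for 10 of 10 further pairs of cells.

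The mouse pairs the cells, since both came from 1 animal. Deviations from the group means correlated across genes within mice at 0.178 (1157), 0.689 (1168) and 0.428 (PDGF1). Between mice they ran from -0.62 to 0.42, the highest for the PDGF1 CTC with the 1157 tumor cell. The alternatives were other pseudocounts, filters, scalings (each cell to the same sum, over all rows unless stated), a mouse block, and leaving out each cell or mouse.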

Additional observations from a re-analysis of the deposited data

How the results depend on the processing

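In the test of CTCs against tumor cells, 0 members passed under any alternative run. With the mouse as a replicate block the count was 0 too, and for Kcnmb4 the difference of 1.84 had an SE of 0.97 (limma, adjusted p = 0.935). Block and quantile normalization together gave it an unadjusted p of 0.0488 (limma, adjusted p = 0.920). With the filter at 2 cells 16 members entered, and 0 passed. Leaving out 1 cell at a time gave 0 called members each time, and moved the difference of Kcnmb4 between -0.24 (without the 1168 CTC) and 2.99. Without mouse 1168 Kcnmb4 did not meet the filter. The median of all genes tested moved from -0.06 to -0.48 with cells scaled to the same sum over all rows, and to -0.75 scaled over protein-coding genes, an alternative chosen after seeing the data.

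Within mice, a difference of at least 2 left 0 higher and 1 lower for 1157 (15.8% and 9.80% of all genes), 6 and 2 for 1168 (7.11% and 8.24%), and 1 and 3 for PDGF1 (11.8% and 24.0%). A pseudocount of 0.1 gave 9 lower in mouse 1157 (51.5% of all genes). Where the higher value also had to exceed the receptor percentile, mouse PDGF1 gave 0 higher and 3 lower (46.3% and 48.6%). The same sum over all rows gave for mouse 1157 1 and 22, for mouse 1168 6 and 3, and for PDGF1 7 and 12. Over protein-coding genes it gave 0 and 69, 6 and 3, and 18 and 13. A difference above 0 in all mice gave 3 higher and 5 lower.

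At 0.5 FPKM, 16 and 21 of the 97 members were detected in the 1157 CTC and tumor cell, beside 11.8% and 16.7% of all rows. The PDGF1 CTC had 5, beside 5.00%. At 5 FPKM the CTC and tumor cell had 0 and 2 for mouse 1157, beside 2.15% and 1.41% of all rows. They had 8 and 3 for 1168 (13.7% and 13.5%), and 0 and 3 for PDGF1 (1.02% and 1.67%). The same sum gave 44 in the 1157 tumor cell and 8 in that of mouse 1168, beside 25.2% and 19.9% of all rows. In mouse PDGF1 it gave 12 and 20, beside 9.49% and 16.7%. In every cell, those of mouse 1168 included, most member values lay under the receptor percentile. The cause of these moves was not tested.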

Other observations

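The antisense rows left out by their ending held signal in some cells. Kcnd3os, opposite Kcnd3, was at 16.4 FPKM in the 1157 tumor cell, where Kcnd3 was at 0.320, and at 2.58 in the 1168 CTC, where Kcnd3 was at 7.49. In the other cells Kcnd3os was at most 0.270. Kcnab3os was at 1.05 FPKM in the PDGF1 tumor cell and at 0.254 in that of mouse 1157, and listed at 0 in the other 4 cells.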
